A study of Mus musculus with 37 samples.

Results

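Penk, Pdyn and Tac1, the 3 genes described here out of 21900 annotated protein-coding genes, encode the peptide precursors of spiny projection neurons, the main neurons of the nucleus accumbens. They were chosen by name, and the reads of all regions in each gene body plus 2 kb on either side were summed. That sum drew on 10 regions in the table of PV nuclei at 60 min, 11 in the SST table and 8 in the table of PV nuclei at 24 h, and 35, 29 and 21 regions lay within 50 kb of the genes. Penk encodes the enkephalin precursor and is used as a marker of indirect-pathway neurons, which carry the dopamine D2 receptor. Pdyn encodes the dynorphin precursor, and Tac1 the precursor of substance P and neurokinin A, and both are markers of direct-pathway neurons, which carry the D1 receptor. Enkephalins act mainly on delta and mu opioid receptors, dynorphins on the kappa opioid receptor and substance P on the NK1 receptor, and psychostimulants are known to alter striatal Pdyn and Tac1 expression.

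Open chromatin was measured by ATAC-seq, in which the Tn5 transposase inserts adapters into accessible DNA. All mice were adults of postnatal day 60 to 210 that carried a Cre-dependent Sun1-GFP nuclear envelope protein at the Rosa locus (INTACT) and a Cre driver, either Pvalb-IRES-Cre for parvalbumin (PV) or Sst-IRES-Cre for somatostatin (SST), as compound heterozygotes. Each library came from the accumbens tissue of a single mouse, homogenized in buffers with sodium butyrate. Nuclei of the driver's cells were captured through GFP (IP), and nuclei left in the supernatant form the unbound fraction (UF), which holds the other cell types. Pvalb-IRES-Cre mice were taken 60 min after 1 intraperitoneal injection of saline or 3 mg/kg amphetamine (AMPH), with 4 libraries for each fraction and treatment. Others were taken 24 h after the last of 6 daily injections, with 4 IP and 4 UF libraries after AMPH, 3 IP libraries after saline and 4 UF libraries after saline. Sst-IRES-Cre mice received saline alone and gave 3 IP and 3 UF libraries. As these are bulk nuclei, fewer nuclei of a type and less accessibility per nucleus cannot be told apart in any value below.

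Total counts per library ran from 650666 to 15120963. As counts scaled to library size (CPM), Pvalb was at 64.6 ± 18.5 (SD, n = 4) in saline PV IP and 7.46 ± 1.20 in UF at 60 min, and Sst was at 13.4 ± 2.81 CPM (n = 3) in SST IP and 1.24 ± 0.338 in UF. Each pull-down was thus high in the gene of its driver. Of 8 oligodendrocyte genes, 8 were lower in saline PV IP at 60 min, where 12.8% of all tested genes were lower, and 8 in SST IP, where 29.4% were. Of 6 endothelial genes, 3 were higher in saline PV IP at 60 min, where 12.2% of all tested genes were higher, and 6 in saline PV IP at 24 h, where 7.18% were. At 24 h after saline their summed level was 292 to 385 CPM in IP against 56.6 to 92.2 CPM in UF. The part that these other cell types have in the peptide gene values was not tested.

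The start of a gene is where its accessibility is usually read, so the promoter sequence is shown for the genes with an entry in the RefSeq promoter table of GRCm38.p6 (2 of 3 matched). Each line gives the 250 bases before the annotated start, read 5′ to 3′ on the strand of the gene. Capitals mark the bases that lie inside the counted region over that start in all 3 tables.
Pdyn, chr2:129699939-129700188, minus strand: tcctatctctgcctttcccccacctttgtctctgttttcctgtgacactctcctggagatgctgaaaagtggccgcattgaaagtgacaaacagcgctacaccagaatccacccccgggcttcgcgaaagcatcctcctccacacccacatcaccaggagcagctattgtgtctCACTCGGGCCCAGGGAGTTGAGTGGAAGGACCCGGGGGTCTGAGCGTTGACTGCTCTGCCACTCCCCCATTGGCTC
Tac1, chr6:7554811-7555060, plus strand: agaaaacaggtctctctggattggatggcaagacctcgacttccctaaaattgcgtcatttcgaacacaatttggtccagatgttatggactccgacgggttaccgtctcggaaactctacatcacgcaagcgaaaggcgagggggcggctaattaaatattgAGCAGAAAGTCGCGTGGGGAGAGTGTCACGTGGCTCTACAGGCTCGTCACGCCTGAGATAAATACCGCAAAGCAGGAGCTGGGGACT
The capitals take up 76 of 250 bases for Pdyn and 87 of 250 for Tac1. Motifs known to bind factors of the cAMP and activity response were searched on both strands. The full cAMP response element TGACGTCA, found in 1.55% of 32851 promoter windows of the same length, and the AP-1 site TGANTCA, found in 6.75%, were in neither sequence. The half-site TGACG, found in 17.8% of windows, was absent from the Pdyn window. In the Tac1 window it occurred on the reverse strand, as CGTCA, 197 to 193 and 43 to 39 bases before the start, and only the second of these lay inside that region in all 3 tables. Such letters are a description of the window and not evidence of binding. The sequence before another annotated Pdyn start, inside the gene, is not shown, as no region lies over it.

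Penk was less accessible in PV nuclei than in the unbound fraction in both experiments and after both treatments. In saline mice at 60 min its summed level was 12.1, 11.1, 11.3 and 8.05 CPM in the 4 IP libraries and 22.0, 21.9, 20.2 and 17.2 CPM in the 4 UF libraries. No IP library reached the lowest UF library. The log2 fold change was -0.95 ± 0.19 (SE; edgeR quasi-likelihood test, adjusted p = 0.00214). After AMPH at 60 min the level was 9.41, 11.2, 14.4 and 11.4 CPM in IP and 20.8, 20.3, 18.7 and 19.9 CPM in UF, again without overlap, with a log2 fold change of -0.77 ± 0.19 (edgeR adjusted p = 0.00523).

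Tac1 was lower in saline PV IP at 60 min to about the same degree. Its 4 IP libraries held 7.48, 9.09, 5.40 and 4.03 CPM and its 4 UF libraries 12.2, 12.2, 13.3 and 11.6 CPM, a log2 fold change of -0.94 ± 0.25 (edgeR adjusted p = 0.0141). The groups did not overlap. After AMPH the IP libraries spread from 4.55 to 11.9 CPM and reached into the UF range of 10.5 to 13.9 CPM, and the log2 fold change of -0.63 ± 0.27 did not pass (edgeR adjusted p = 0.0866). Without IP replicate 3, the library at 11.9 CPM, it was -0.90 and passed (edgeR adjusted p = 0.0246). It also passed with the gene body alone, at -0.81 (edgeR adjusted p = 0.0428), and with a block on the replicate number, at -0.66 (edgeR adjusted p = 0.0300), although the numbers were not shown to pair these libraries. In the other 12 of 15 alternative fits Tac1 did not pass.

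Pdyn, summed over its gene, passed after AMPH and not after saline. In saline mice at 60 min the IP libraries held 5.20, 6.36, 8.56 and 5.37 CPM and the UF libraries 8.23, 8.93, 7.80 and 7.72 CPM, so that 1 IP library lay within the UF range. The log2 fold change of -0.36 ± 0.24 did not pass (edgeR adjusted p = 0.314). After AMPH at 60 min the IP libraries held 5.77, 3.68, 4.27 and 6.08 CPM against 6.95, 10.2, 9.73 and 10.3 CPM in UF, without overlap, and Pdyn passed at -1.0 ± 0.28 (edgeR adjusted p = 0.0130). The AMPH by fraction interaction at 60 min was -0.65 ± 0.34 for Pdyn and did not pass (edgeR adjusted p = 1.000), so the saline and AMPH values are not shown to differ. The saline value also depended on which regions were summed, since with regions within 1 kb of the gene ends alone it was -1.71 (edgeR adjusted p = 0.00331). In all, 2 of the 3 genes were called lower in saline PV IP at 60 min, where 25.0% of all tested genes were called and 12.8% were lower, and 2 of 3 after AMPH, where 28.9% were called and 14.3% were lower.

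**Figure D1:**
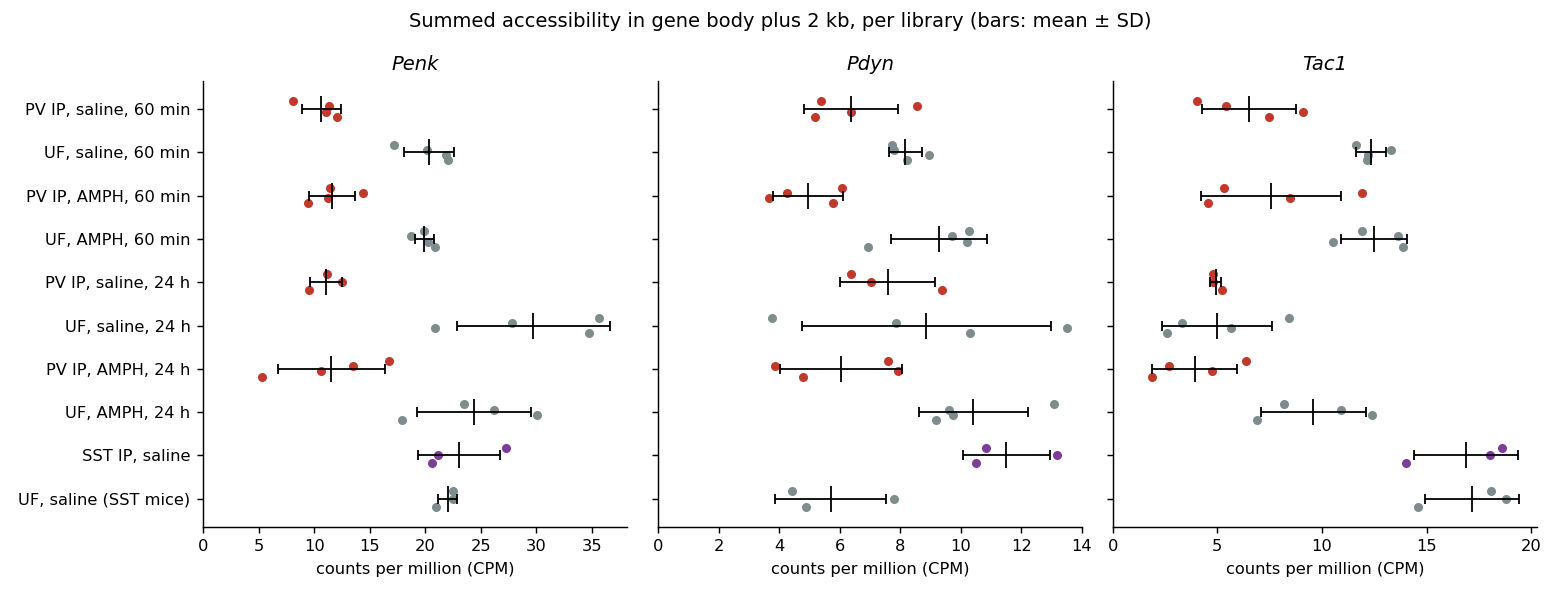
Summed accessibility of Penk, Pdyn and Tac1 in CPM on the horizontal axis, with 1 point per library, for the 10 groups on the vertical axis; bars give the mean and SD. Penk lies at 8.05 to 12.1 CPM in saline PV IP at 60 min and at 17.2 to 22.0 CPM in the matching UF, while SST IP and UF overlap for Penk and Tac1 and separate for Pdyn. Levels compare within a table and not across the 3 tables, which hold different regions.

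In SST nuclei no difference was detectable for Penk and Tac1, and Pdyn was higher than in UF. Penk was at 20.6, 21.1 and 27.3 CPM in the 3 IP libraries and at 21.0, 22.5 and 22.5 CPM in UF, with a log2 fold change of 0.07 ± 0.14 (edgeR adjusted p = 0.667). Tac1 was at 14, 18.0 and 18.6 CPM in IP and 14.6, 18.8 and 18.1 CPM in UF, with a log2 fold change of -0.02 ± 0.15 (edgeR adjusted p = 0.921). Both sets of libraries overlapped. Pdyn was higher in SST IP, at 10.5, 13.2 and 10.8 CPM against 4.89, 7.79 and 4.42 CPM in UF, so that the lowest IP library stood above the highest UF library. Its log2 fold change was 1.02 ± 0.21 (edgeR adjusted p = 0.000495), and it is the 1 gene of 3 called, in a comparison where 58.3% of all tested genes were called, 28.9% higher and 29.4% lower.

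The difference between the pull-downs was tested directly in saline libraries, as the log2 ratio of IP over UF in PV at 60 min minus that in SST. It was -1.02 ± 0.24 for Penk (edgeR adjusted p = 0.00490), -1.37 ± 0.34 for Pdyn (edgeR adjusted p = 0.00746) and -0.92 ± 0.31 for Tac1 (edgeR adjusted p = 0.0388). All 3 genes were thus called lower, where 22.2% of all tested genes were called and 10.8% were lower. The Tac1 call was lost in 10 of 14 fits that left out 1 library, with adjusted p up to 0.111. The PV and SST sums also hold different regions, 3 and 2 for Penk and 4 and 6 for Tac1. For Pdyn they hold 3 each, which are not all the same. Penk and Pdyn kept their call in all 22 alternative fits, which include sums over shared regions alone. PV and SST mice come from different tables and crosses, and the cross and the pull-down target cannot be told apart.

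At 24 h the Penk difference was seen again. Its IP libraries held 9.55, 12.5 and 11.2 CPM after saline and its UF libraries 34.7, 20.8, 27.8 and 35.6 CPM, with a log2 fold change of -1.52 ± 0.34 (edgeR adjusted p = 0.00106). After AMPH the IP libraries held 5.33, 10.6, 13.5 and 16.7 CPM and the UF libraries 17.9, 30.0, 26.2 and 23.5 CPM, with a log2 fold change of -1.33 ± 0.30 (edgeR adjusted p = 0.00119). IP and UF did not overlap after either treatment. The titles of the 24 h libraries carry an isolation number, Iso1 or Iso2, which the fits hold as a term. All saline IP libraries are Iso2, so the saline fold rests on Iso2 libraries. After AMPH, IP stood below UF within Iso1 (5.33 CPM in 1 library against 17.9 to 30.0 CPM) and within Iso2 (10.6 to 16.7 CPM against 23.5 CPM in 1 library). Without AMPH IP library Iso1-1 the Penk fold change was -0.79 and did not pass (edgeR adjusted p = 0.0875).

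Pdyn and Tac1 gave less certain values at 24 h. After saline, Pdyn was at 9.37, 7.04 and 6.38 CPM in IP and 10.3, 13.5, 7.85 and 3.77 CPM in UF, and the groups overlapped. The fit with the isolation term gave 0.45 ± 0.53 on the log2 scale (edgeR adjusted p = 0.622), although the mean was lower in IP (7.60 CPM) than in UF (8.86 CPM). Without that term the value was -0.08 (edgeR adjusted p = 0.932), and with the gene body plus 50 kb Pdyn was called lower, at -0.76 (edgeR adjusted p = 0.0326), so no direction is given for it. Tac1 was at -0.24 ± 0.63 after saline (edgeR adjusted p = 0.844), with IP from 4.77 to 5.22 CPM inside the UF range of 2.57 to 8.40 CPM. One saline IP library held only 4 reads over Pdyn and 3 over Tac1. How far this depth limited what could be detected was not tested. After AMPH, Pdyn was at 6.04 ± 2.02 CPM in IP (n = 4) against 10.4 ± 1.81 CPM in UF, a log2 fold change of -0.96 ± 0.35 (edgeR adjusted p = 0.0438). Tac1 was at 3.92 ± 2.03 CPM in IP and 9.59 ± 2.50 CPM in UF, a log2 fold change of -1.37 ± 0.47 (edgeR adjusted p = 0.0287). IP and UF did not overlap for either gene after AMPH. Of 8 fits that each left out 1 library, 6 lost the Pdyn call, with values from -1.04 to -0.85. Tac1 lost it in 2, without IP Iso1-1 (-0.75, edgeR adjusted p = 0.342) and without UF Iso1-2 (edgeR adjusted p = 0.0657). The 24 h count was thus 1 of 3 genes lower after saline, where 7.80% of all tested genes were lower and 7.18% higher, and 3 of 3 after AMPH, where 12.1% were lower.

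**Figure D2:**
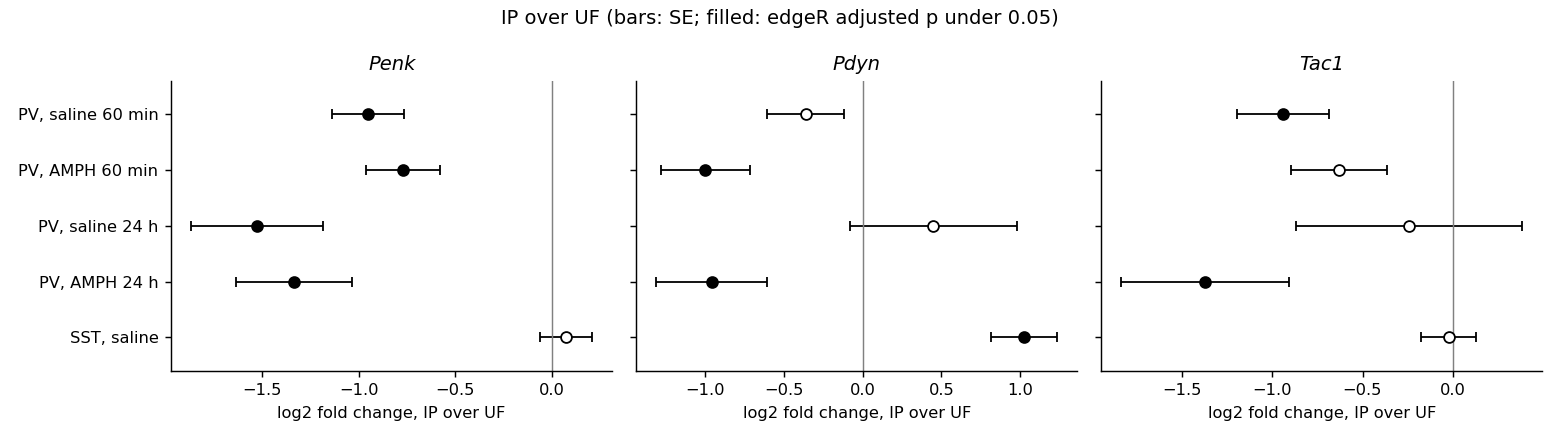
Log2 fold change of IP over UF on the horizontal axis for each gene in the 5 comparisons on the vertical axis; points are edgeR estimates, bars the SE, and filled points have an adjusted p under 0.05. Penk is filled and below 0 in all 4 PV comparisons, from -1.52 to -0.77, and Pdyn is filled and above 0 in SST.

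Single regions showed where along each locus the fractions differed. Within 50 kb of the genes, 29 of 35 regions were tested in saline PV IP at 60 min, and 6 held too few reads. Of the 29 tested, 16 were lower, 2 were higher and 11 did not pass. Of all tested regions 23.2% were lower and 21.6% higher. After AMPH at 60 min 22 were tested and 13 were not. Of the 22, 11 were lower (22.0% of all tested regions) and 2 were higher (21.5%). In SST 3 of 29 were lower (22.7%) and 6 higher (24.1%), all 29 being tested. At 24 h after saline 14 of 21 were tested, of which 4 were lower (7.98%) and 1 higher (9.63%). At 24 h after AMPH 16 of 21 were tested, of which 6 were lower (11.3%) and 0 higher (11.9%). In the 4 PV comparisons the libraries of IP and UF did not overlap at any called region. In SST they overlapped at 2 of the 3 regions called lower and separated at all 6 called higher. A call itself favours separated libraries, and the share over all called regions was not counted, so this is a description only.

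At the Penk locus (chr4:4133536-4138815) the region over the high-coordinate end of the gene, chr4:4138757-4138956, was lower in all 4 PV comparisons. It was at 3.67, 3.15, 4.31 and 2.47 CPM in saline IP at 60 min and 6.61, 8.06, 9.94 and 8.26 CPM in UF, a log2 fold change of -1.26 ± 0.29 (edgeR adjusted p = 0.00183). The value was -1.10 ± 0.33 after AMPH (edgeR adjusted p = 0.00837), and at 24 h -1.70 ± 0.43 after saline (edgeR adjusted p = 0.00179) and -1.79 ± 0.39 after AMPH (edgeR adjusted p = 0.000610). In SST the overlapping region was at 7.25, 9.17 and 12.7 CPM in IP, with UF at 9.86, 10.6 and 11.8 CPM, and did not pass, at -0.13 ± 0.19 (edgeR adjusted p = 0.595). The PV minus SST difference at this region was -0.96 ± 0.36 and just missed the threshold (edgeR adjusted p = 0.0518).

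The region chr4:4140192-4140391, also enters the sum. It was at 7.03 ± 1.25 CPM in saline PV IP at 60 min (n = 4), against 11.6 ± 2.32 CPM in UF, at -0.70 ± 0.25 (edgeR adjusted p = 0.0314), and at -0.07 ± 0.17 in SST (edgeR adjusted p = 0.771). On the other side of the gene, chr4:4131119-4131318 did not pass, at 0.10 ± 0.26 in saline PV IP (edgeR adjusted p = 0.782).

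Another Penk region, chr4:4141721-4141920, is centred 3005 bases beyond that end and outside the summed window. It was at 1.97 ± 0.916 CPM in saline IP at 60 min (n = 4) and 6.82 ± 0.416 CPM in UF, a log2 fold change of -1.81 ± 0.34 (edgeR adjusted p = 0.000417), and -1.21 ± 0.36 after AMPH (edgeR adjusted p = 0.00917). It did not pass in SST, at -0.33 ± 0.27 (edgeR adjusted p = 0.333), and here the PV minus SST difference was called, at -1.33 ± 0.43 (edgeR adjusted p = 0.0269), and it held in 13 of 16 alternative fits. A more distant region, chr4:4174534-4174733, lies 35818 bases beyond the gene and inside the long noncoding RNA gene A830012C17Rik. In saline mice at 60 min it was at 0.750 ± 0.524 CPM in IP, against 3.79 ± 0.558 CPM in UF, a log2 fold change of -2.34 ± 0.47 (edgeR adjusted p = 0.000636). No region near Penk was higher in any IP, and of the 8 in SST 0 were called, where 46.8% of all tested regions were called in either direction.

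At Pdyn (chr2:129686549-129699938, minus strand) the region over the start, chr2:129699821-129700020, which includes the capitals of the Pdyn sequence above, was at 0.772, 1.63, 2.50 and 1.31 CPM in saline PV IP at 60 min. In UF it was at 3.73, 5.86, 5.58 and 5.62 CPM, so that every IP library stood below every UF library. Its log2 fold change was -1.69 ± 0.37 (edgeR adjusted p = 0.00122), and -2.15 ± 0.46 after AMPH (edgeR adjusted p = 0.000690). At 24 h the matching region was at -1.76 ± 0.60 after AMPH (edgeR adjusted p = 0.0257) and did not pass after saline, at -0.47 ± 0.86. The AMPH call at 24 h held in 7 of 11 alternative fits. The region 3668 bases into the gene, chr2:129696171-129696370, chosen after its values were seen, averaged 3.10 CPM in IP against 2.64 CPM in UF and did not pass, at 0.24 ± 0.34 (edgeR adjusted p = 0.600). The difference between these regions was not tested. Both enter the Pdyn sum, which as a whole did not pass in saline mice. In SST the region over the start was at 3.82, 5.26 and 3.70 CPM in IP and 2.28, 3.46 and 2.50 CPM in UF, and its 0.63 ± 0.28 missed the threshold (edgeR adjusted p = 0.0556). The PV minus SST difference at the start was -2.14 ± 0.48 (edgeR adjusted p = 0.00268), and it was called in all 16 alternative fits.

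A pair of distal regions beyond the Pdyn start had the highest UF levels of the locus in saline mice at 60 min. The first, chr2:129712987-129713186, is centred 13148 bases upstream of the start and was at 3.28, 1.63, 1.02 and 3.05 CPM in saline PV IP at 60 min and 11.2, 11.5, 13.4 and 16.9 CPM in UF. Its log2 fold change was -2.60 ± 0.34 (edgeR adjusted p = 2.98e-05). The second, chr2:129734161-129734360, lies 34322 bases upstream and was at 2.32, 1.02, 2.72 and 2.61 CPM in IP and 14.4, 14, 9.45 and 12.6 CPM in UF, at -2.54 ± 0.32 (edgeR adjusted p = 2.41e-05). Both were lower in all 4 PV comparisons, with log2 fold changes from -2.60 to -1.68 for the first and from -3.22 to -2.12 for the second. For the first, the call at 24 h after saline held in 7 of 10 alternative fits.
In SST the first was lower at -0.70 ± 0.23 (edgeR adjusted p = 0.0108) and the second did not pass at -0.43 ± 0.24 (edgeR adjusted p = 0.143). The PV minus SST difference was -1.77 ± 0.44 for the first (edgeR adjusted p = 0.00587) and -1.97 ± 0.42 for the second (edgeR adjusted p = 0.00185).

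Other regions near Pdyn were higher in the pull-downs. In SST the region chr2:129708114-129708313, 8275 bases upstream of the start, was at 7.38, 5.86 and 7.63 CPM in IP and 0.843, 0.630 and 0.268 CPM in UF, a log2 fold change of 3.56 ± 0.34 (edgeR adjusted p = 1.09e-14). A further SST region, chr2:129743241-129743440, was at 2.31 ± 0.548 CPM in IP (n = 3), against 0.279 ± 0.0323 CPM in UF, at 3.02 ± 0.53 (edgeR adjusted p = 2.40e-06), and the region just inside the gene, chr2:129699556-129699755, was higher at 1.60 ± 0.37 (edgeR adjusted p = 0.000250). Neither of the distal SST regions overlaps a region of the PV tables, so the difference from PV could not be fitted there. In PV IP at 60 min the region chr2:129742344-129742543, 42505 bases upstream, was at 4.63 ± 1.86 CPM (n = 4) against 1.46 ± 0.277 CPM in UF after saline, at 1.67 ± 0.39 (edgeR adjusted p = 0.00196), and 1.81 ± 0.39 after AMPH (edgeR adjusted p = 0.000645). At 24 h the matching region was called higher after saline, a call that held in 4 of 6 alternative fits. After AMPH at 24 h it was not called, at 0, 2.41, 0.399 and 0.608 CPM in IP and 0.665, 0.835, 0.457 and 0.543 CPM in UF. The region chr2:129648725-129648924, on the far side of the gene, was higher in saline PV IP at 3.13 ± 0.54 (edgeR adjusted p = 0.000199). The region chr2:129677735-129677934, 8715 bases beyond the low-coordinate end, was lower in PV IP and higher in SST IP. It was at -3.39 ± 0.61 in PV (edgeR adjusted p = 0.000267) and 0.80 ± 0.34 in SST (edgeR adjusted p = 0.0489), and the difference between them was -4.01 ± 0.69 (edgeR adjusted p = 0.000381).

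At Tac1 (chr6:7555061-7562978, plus strand) the region over the start was called in no comparison. That region, chr6:7554974-7555173, was at 3.09, 3.76, 3.63 and 1.89 CPM in saline PV IP at 60 min and 3.22, 5.19, 6.46 and 5.07 CPM in UF, at -0.68 ± 0.33 (edgeR adjusted p = 0.107). IP and UF libraries overlapped there, and with gene ends alone the Tac1 sum no longer passed (-0.50, edgeR adjusted p = 0.314). Another region in the Tac1 sum was called in saline mice, that 5921 bases into the gene, chr6:7560883-7561082, which was at 1.16, 1.32, 0.681 and 1.02 CPM in IP and 6.78, 4.39, 3.88 and 4.08 CPM in UF. Its log2 fold change was -2.15 ± 0.38 (edgeR adjusted p = 0.000252), against -0.19 ± 0.33 in SST (edgeR adjusted p = 0.659), and the PV minus SST difference was -1.78 ± 0.51 (edgeR adjusted p = 0.0138). After AMPH it was at -1.03 ± 0.46 and did not pass (edgeR adjusted p = 0.0751).

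The region near Tac1 with the highest UF level in saline mice at 60 min is chr6:7603505-7603704, centred 48543 bases downstream of the start. It was at 2.90, 0.305, 2.38 and 0.872 CPM in saline PV IP at 60 min and 10.0, 7.39, 8.08 and 11.1 CPM in UF, a log2 fold change of -2.54 ± 0.45 (edgeR adjusted p = 0.000244). It was lower in every PV comparison, at -2.37 ± 0.40 after AMPH at 60 min (edgeR adjusted p = 6.23e-05) and at 24 h at -2.41 ± 0.59 after saline (edgeR adjusted p = 0.00123) and -1.25 ± 0.45 after AMPH (edgeR adjusted p = 0.0386). In SST it was lower by less, at -0.68 ± 0.26 (edgeR adjusted p = 0.0293), with overlapping libraries, and the PV minus SST difference was -1.71 ± 0.58 (edgeR adjusted p = 0.0359). The PV call at 24 h after AMPH held in 4 of 11 alternative fits, the SST call in 4 of 8, and the difference in 7 of 16. A neighbour, chr6:7609780-7609979, was lower in both pull-downs, at -2.79 ± 0.50 in PV (edgeR adjusted p = 0.000286) and -1.43 ± 0.39 in SST (edgeR adjusted p = 0.00178). Upstream, chr6:7513309-7513508 was lower in PV IP at 60 min, at -1.79 ± 0.42 after saline (edgeR adjusted p = 0.00209) and -2.54 ± 0.52 after AMPH (edgeR adjusted p = 0.000418).
Only 2 regions near Tac1 were higher in a pull-down. One is chr6:7529008-7529207, 25954 bases upstream, at 6.55, 3.31, 11.8 and 2.12 CPM in AMPH PV IP at 60 min and 0.949, 0, 0.309 and 0.913 CPM in UF, at 3.88 ± 0.65 (edgeR adjusted p = 6.13e-05). In saline mice it did not reach the count minimum in enough libraries to be tested, where IP held 4.31 ± 2.90 CPM (n = 4) and UF 0.230 ± 0.0764 CPM. The other, chr6:7571221-7571420, was higher in SST IP at 1.86 ± 0.42 (edgeR adjusted p = 0.000154).

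Across the 3 loci, 23 regions were shared by the PV 60 min and SST tables with at least 100 bases of overlap. Of these 8 had a lower IP over UF in PV than in SST and 0 a higher one, where 12.6% of all shared regions tested were lower and 10.4% higher. The 8 comprise 1 near Penk, 4 near Pdyn and 3 near Tac1, and their number ran from 5 to 10 when 1 library was left out. Over all shared regions the median difference was 0.12 on the log2 scale.

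**Figure D3:**
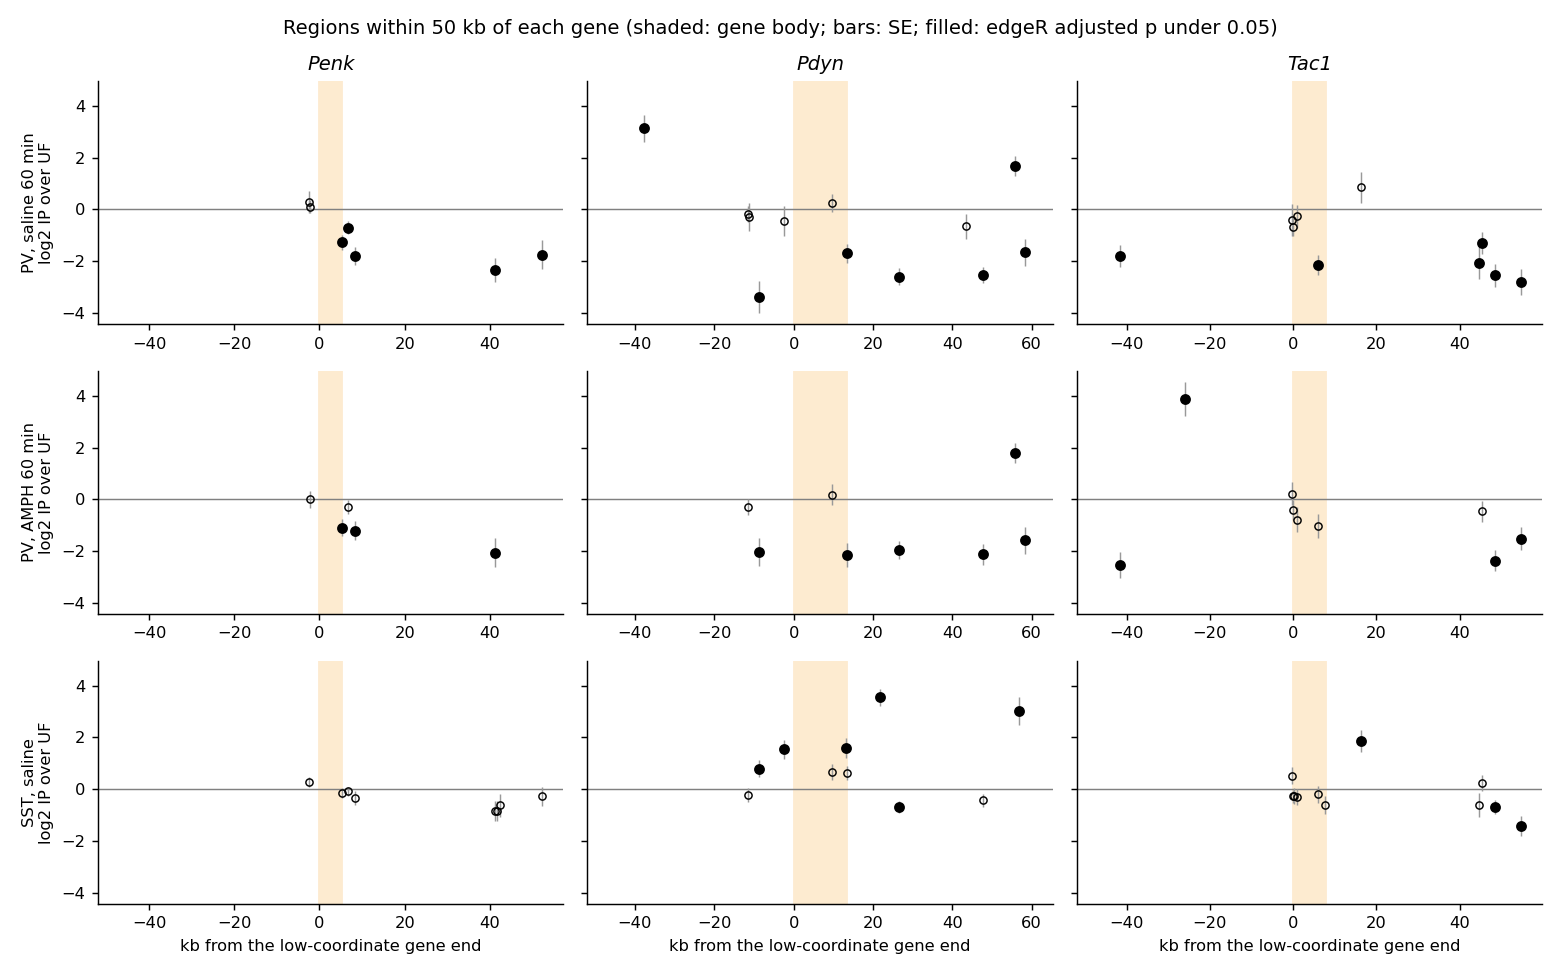
Log2 fold change of IP over UF for each tested region against its distance in kb from the low-coordinate end of the gene; rows are saline PV at 60 min, AMPH PV at 60 min and SST, the shaded band is the gene body, bars are the SE, and filled points have an edgeR adjusted p under 0.05. In PV the filled points beyond the high-coordinate ends are mostly below 0, while near Pdyn in SST 5 filled points are above 0 and 1 is below.

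**Figure D4:**
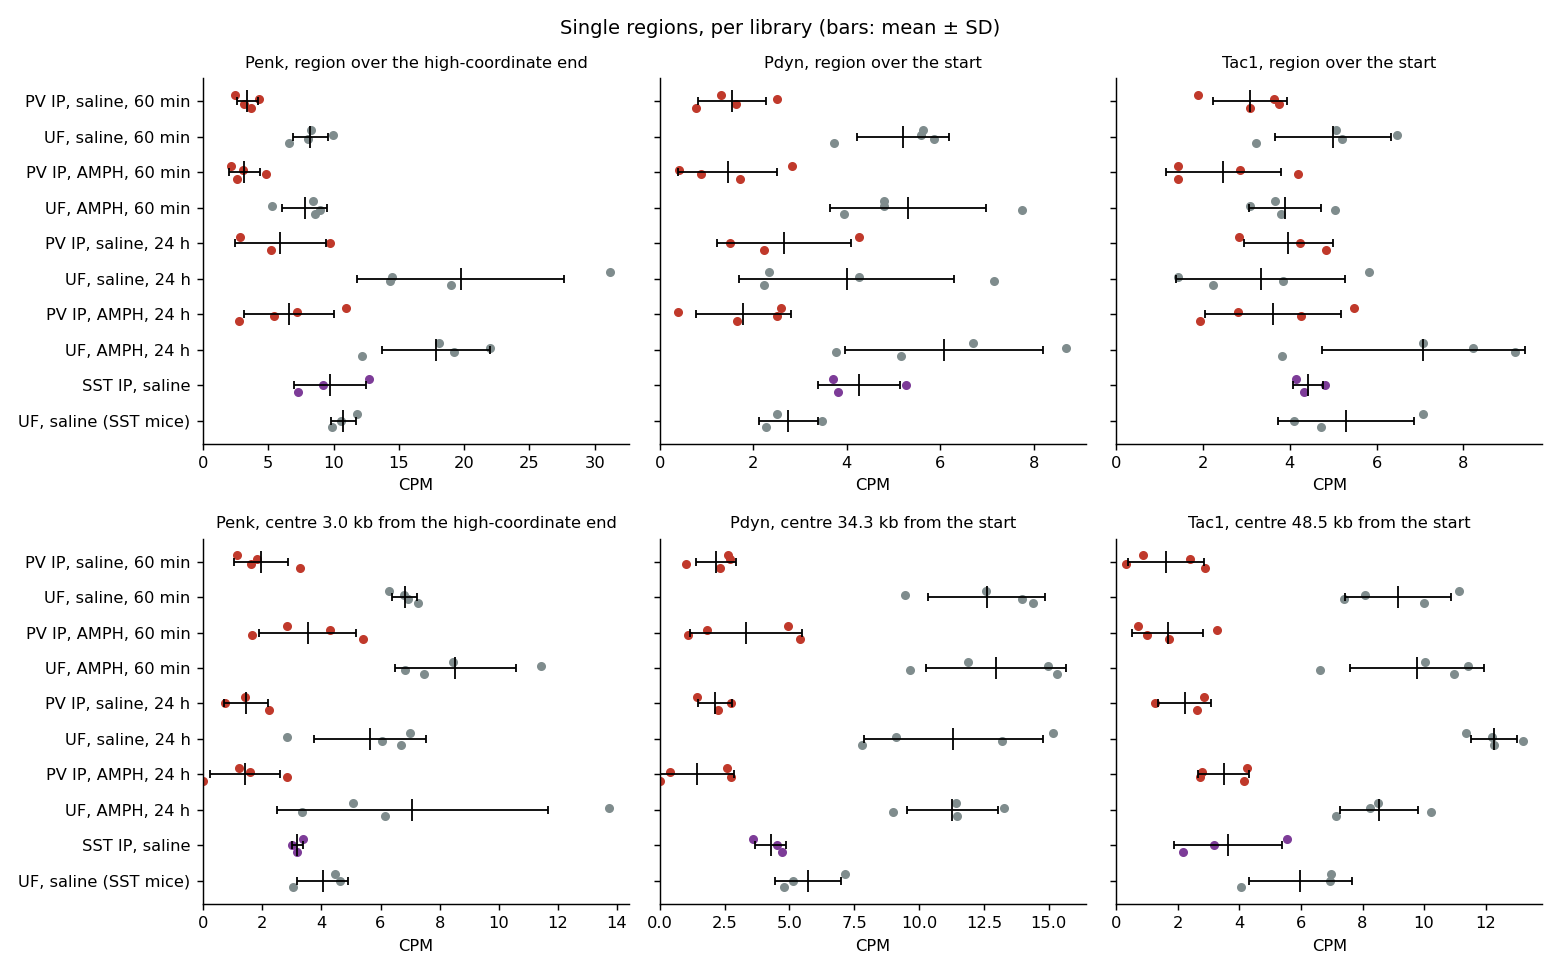
CPM of single regions on the horizontal axis, with 1 point per library for the 10 groups and bars for mean and SD. The upper row shows the region over the high-coordinate end of Penk and over the starts of Pdyn and Tac1, and the lower row the other region of each locus with the lowest adjusted p in saline PV at 60 min. In the lower row the PV IP libraries stand below all UF libraries of their own treatment and time.

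No difference between AMPH and saline was detectable for the 3 genes in either fraction at either time. These comparisons use the same libraries as those of IP against UF. At 60 min in PV IP the log2 ratio of AMPH over saline was 0.14 ± 0.25 for Penk, -0.43 ± 0.33 for Pdyn and 0.28 ± 0.36 for Tac1. In UF, where spiny projection neuron nuclei remain, it was -0.04 ± 0.13 for Penk, 0.17 ± 0.19 for Pdyn and -0.01 ± 0.16 for Tac1. All saline and AMPH libraries overlapped for each gene. The SE was larger in IP than in UF, so smaller changes were detectable in UF than in IP. At 24 h the SE was 0.31 to 0.48 in PV IP and 0.25 to 0.44 in UF. The largest 24 h value was Tac1 in UF at 0.82 ± 0.44, from 4.98 ± 2.63 CPM after saline to 9.59 ± 2.50 CPM after AMPH (n = 4 each), which did not pass (edgeR adjusted p = 0.999) and overlapped. Of the 3 genes 0 were called in any of these comparisons, where 0 of 16205 to 16895 tested genes were (0% in each) by edgeR. Between 250 and 624 genes were under an unadjusted edgeR p of 0.05, a share below 0.05 of the tested genes in each comparison. DESeq2 called 0 genes in 3 of the comparisons and 1 in UF at 24 h.

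Single regions gave the same count. No region within 50 kb of the genes was called for AMPH against saline, with 16 of 35 tested in PV IP and 30 of 35 in UF at 60 min, and 15 of 21 and 13 of 21 at 24 h. By edgeR 0% of all tested regions were called at 60 min in either fraction. Under an unadjusted edgeR p of 0.05 were 3434 of 145103 tested regions in IP and 6474 of 170436 in UF, a share below 0.05 in each. At 24 h 0.0273% were called in PV IP, all lower, and 0.0531% in UF, where 0.0520% were lower and 0.00108% higher. The Pdyn start was at 1.71, 0.881, 0.408 and 2.82 CPM in AMPH PV IP at 60 min, which covers the saline range of 0.772 to 2.50 CPM.

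**Figure D5:**
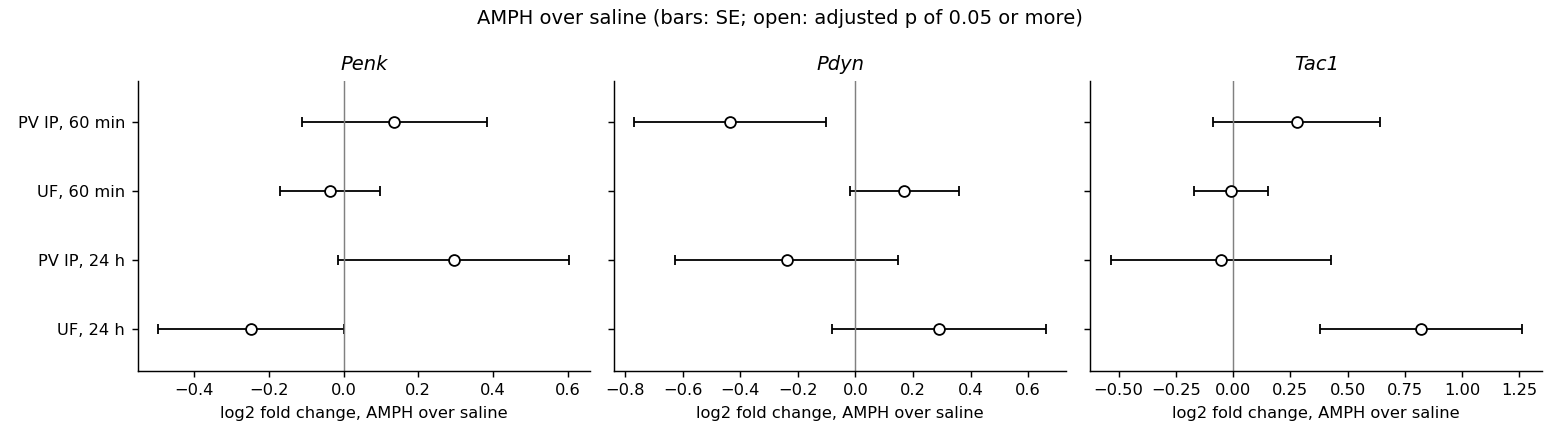
Log2 fold change of AMPH over saline on the horizontal axis for each gene in PV IP and UF at 60 min and 24 h; bars are the SE and all points are open, as none had an edgeR adjusted p under 0.05. The values run from -0.43 to 0.82.

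Lists of opioid and tachykinin receptor genes, which hold receptors of the 3 peptides and of related peptides, were read the same way. Of 4 opioid receptor genes, 1 was higher and 2 were lower in saline PV IP at 60 min, where 12.2% of all tested genes were higher and 12.8% lower. Oprd1, the delta receptor at which enkephalins act, rose from 23.1 ± 1.98 CPM in UF to 60.1 ± 7.60 CPM in IP (n = 4), a log2 fold change of 1.36 ± 0.13 (edgeR adjusted p = 2.23e-05). Oprm1, the mu receptor at which enkephalins also act, was lower at -0.68 ± 0.15 (edgeR adjusted p = 0.00517). Oprk1, the kappa receptor of dynorphins, was at 3.53 ± 1.04 CPM in IP and 6.99 ± 1.51 CPM in UF, at -0.98 ± 0.30 (edgeR adjusted p = 0.0267). In SST IP all 4 opioid receptor genes were higher, where 28.9% of all tested genes were, with Oprd1 at 0.95 ± 0.15 (edgeR adjusted p = 3.99e-05). For 2 of the 4 the ratio of IP over UF was lower in PV than in SST, where 10.8% of all tested genes were, with a difference for Oprk1 of -1.64 ± 0.32 (edgeR adjusted p = 0.00142). Of the 3 tachykinin receptor genes 0 passed in saline PV IP at 60 min, where 25.0% of all tested genes were called. In SST IP 2 of 3 were higher, beside 28.9% of all tested genes. Among them Tacr3, the receptor of neurokinin B, rose by 1.08 ± 0.17 (edgeR adjusted p = 3.54e-05). Tacr1, the NK1 receptor of substance P, rose by 0.61 ± 0.11 (edgeR adjusted p = 0.000136). The PV minus SST difference for Tacr1 was -0.95 ± 0.19 (edgeR adjusted p = 0.00148).

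Peptide relatives and processing enzymes were mixed. Of 4 related precursor genes, 2 were higher and 1 lower in saline PV IP at 60 min, beside 12.2% and 12.8% of all tested genes. Tac4, the hemokinin precursor, was at 10.0 ± 2.76 CPM in IP and 3.81 ± 1.27 CPM in UF, at 1.33 ± 0.31 (edgeR adjusted p = 0.00562). Tac2, the neurokinin B precursor, was at 0.839 ± 0.860 CPM in IP and 5.25 ± 1.14 CPM in UF, at -2.87 ± 0.53 (edgeR adjusted p = 0.00146). In SST IP 1 of 3 tested relatives was higher, beside 28.9% of all tested genes, and this was Pnoc, the nociceptin precursor, at 0.68 ± 0.14 (edgeR adjusted p = 0.000383). Of 6 processing genes, Scg5 was higher in saline PV IP at 0.51 ± 0.16 (edgeR adjusted p = 0.0252) and Pcsk2, the convertase that cleaves peptide precursors, was lower at -0.84 ± 0.12 (edgeR adjusted p = 0.000168). In SST IP 5 of 6 processing genes were higher, beside 28.9% of all tested genes, with Pcsk1 at 0.61 ± 0.11 (edgeR adjusted p = 0.000214).

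Other marker genes of spiny projection neurons give the setting for the 3 peptides. Of 12 genes shared by both pathways, 8 were lower and 0 higher in saline PV IP at 60 min, beside 12.8% and 12.2% of all tested genes. Their median log2 fold change was -0.55, against -0.0022 over all tested genes, and their summed level was 1026 to 1166 CPM in IP and 1589 to 1707 CPM in UF. Rgs9, a regulator of G protein signalling, was lowest at -1.18 ± 0.11 (edgeR adjusted p = 2.22e-05). In the same comparison 2 of 6 direct-pathway genes were lower, with Sfxn1 at -0.98 ± 0.15 (edgeR adjusted p = 0.000373), and of 6 indirect-pathway genes 1 was, Drd2, the D2 receptor, at -1.49 ± 0.17 (edgeR adjusted p = 5.05e-05). Drd1, the D1 receptor, did not pass at -0.35 ± 0.33 (edgeR adjusted p = 0.487). Isl1, Chrm4, Sp9 and Grik3 had positive values and were not called. Adora2a (-0.65), Gpr6 (-0.46), Gpr52 (-0.32) and Slc35d3 (-0.00068) had negative values and were not called either. The summed direct-pathway level was 164 to 181 CPM in IP and 202 to 234 CPM in UF. The indirect-pathway level overlapped, at 179 to 294 CPM in IP and 220 to 242 CPM in UF. Grik3, at 0.44 ± 0.16, brought 36 regions into that sum, the most of its list. In SST IP 5 of the 12 shared genes were higher and 2 lower, 3 of 6 direct-pathway genes were higher, and 2 of 6 indirect-pathway genes were higher and 1 lower, beside 28.9% higher and 29.4% lower over all tested genes. For the PV minus SST difference 6 of the 12 shared genes were lower and 0 higher, beside 10.8% and 11.4% of all tested genes, with Rgs9 at -1.57 ± 0.15 (edgeR adjusted p = 2.83e-06). At 60 min after saline the direct-pathway gene Ebf1 was lower in PV IP, at -0.85 ± 0.17 (edgeR adjusted p = 0.00269). At 24 h Ebf1 was higher, at 0.69 ± 0.22 after saline (edgeR adjusted p = 0.0267). After AMPH at 24 h it was at 0.71 ± 0.16 (edgeR adjusted p = 0.000833). Of the 6 direct-pathway genes 0 were lower at 24 h after saline and 3 after AMPH, beside 1277 of 16370 and 2030 of 16752 tested genes. The lists were chosen with earlier results of these data known, and nothing particular to them is read from the counts.

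Over the 16 libraries of PV mice at 60 min, the genes whose log2 CPM followed each peptide gene most closely were named by Pearson correlation among 17109 genes. The libraries share the split into IP and UF and range in depth, and the correlations are a description with no test. Penk was closest to Spint2 (r = 0.970), Optc (r = 0.953) and Tctn1 (r = 0.952). Pdyn was closest to Rnf182 (r = 0.906), Tnxb (r = 0.889) and Tekt4 (r = 0.887), and Tac1 to Mpi (r = 0.936), Stx1a (r = 0.907) and Decr1 (r = 0.904).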

How the data were processed

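ATAC-seq reads were counted by the authors in 200 bp regions, and their deposited tables hold raw counts per region and library: 205848 regions in the PV table at 60 min, 171130 in that at 24 h and 178637 in the SST table, on mm10 per the labels. The submitters' processing notes name cutadapt 1.8.3, Bowtie2 2.3.4.3, MACS2 2.1.2 and bedtools 2.25.0. The regions differ between the tables, so CPM levels are compared within a table.

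Counts of regions overlapping each RefSeq gene body plus 2 kb (GRCm38.p6) were summed. Sums and single regions were tested over each whole table with edgeR 4.0.16 in R 4.3.3 (quasi-likelihood F test, TMM, minimum count 10 and minimum total 15, Benjamini-Hochberg adjustment, threshold 0.05). CPM are TMM-scaled. Fits at 24 h carry the isolation number. Regions of the PV 60 min and SST tables were matched by at least 100 bases of overlap, a comparison added after seeing the data. Alternatives were DESeq2 1.42.0, RLE scaling, no filter, other windows, a replicate block, no isolation term and each library left out. The procedure was tested on simulated data.

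The members and lists were chosen with earlier results of these data known. Named were the 3 genes, the regions over their starts (for Penk, the high-coordinate end), per comparison up to 3 called regions per gene with the lowest adjusted p, the called list genes with the largest rise and fall, and the 3 most correlated genes. Some called regions are named beyond that rule, chosen after their values were seen. Same-numbered IP and UF libraries deviated together in saline PV mice at 60 min (correlations of 0.206 to 0.598 in 4 pairs). The labels do not say that such libraries come from the same mouse, and the main fits leave the replicate number out. In that comparison the replicate block changed no call on the 3 genes. Libraries held 650666 to 15120963 counts. Standard errors and p-values measure the spread between libraries, each from a single mouse.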

Additional observations from a re-analysis of the deposited data

Results flagged for a closer look

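The ratio of IP over UF differed between PV and SST nuclei for all 3 genes, by -1.02 for Penk, -1.37 for Pdyn and -0.92 for Tac1 on the log2 scale (edgeR interaction, adjusted p = 0.00490, 0.00746 and 0.0388). In 4 cases a single library stood apart from the other 3 of its group by Dixon's test, out of 42 groups tested, and chance gives about 1 in 20. Pdyn was at 13.1 CPM in UF library Iso2-1 after AMPH at 24 h, against 9.20 to 9.74 CPM in the others, which are all Iso1. Pdyn was at 6.95 CPM in UF replicate 1 after AMPH at 60 min, against 9.73 to 10.3 CPM. The region over the Pdyn start was at 3.73 CPM in saline UF replicate 1 at 60 min, against 5.58 to 5.86 CPM. The region over the high-coordinate end of Penk was at 5.25 CPM in UF replicate 3 after AMPH at 60 min, against 8.44 to 8.99 CPM.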

How the results depend on the processing

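Of the values recomputed under each alternative, 651 kept their direction and side of the threshold or moved by less than the limit, 28 reversed, 25 were weaker, 5 stronger and 6 moved. The causes were not tested. With regions within 1 kb of the gene ends alone, saline PV IP against UF at 60 min gave -1.713 for Pdyn (now called) and -0.498 for Tac1 (lost), SST gave 0.00194 for Tac1, AMPH at 24 h gave -0.7064 for Pdyn (lost), and PV minus SST gave -0.4936 for Tac1 (lost). The same window turned AMPH against saline at 60 min to -0.05589 for Penk in IP, and in UF to 0.09207 for Penk and 0.1309 for Tac1, and the Penk interaction at 60 min to -0.1229, none of them called. With the gene body plus 50 kb, Pdyn was called in saline PV at 60 min (-0.852) and 24 h (-0.7604), and AMPH against saline turned, uncalled, to 0.18 for Pdyn in IP at 60 min, to 0.08012 for Penk and 0.1312 for Tac1 in UF at 60 min, and for Tac1 at 24 h to 0.01988 in IP and -0.0915 in UF. With the gene body alone Tac1 was called in AMPH PV at 60 min (-0.8101). Without the isolation term Pdyn at 24 h was -0.08441 after saline and -0.7187 after AMPH (lost).

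The labels do not say whether replicate numbers pair the libraries. Outside the saline PV libraries at 60 min, pairing was not shown by the correlations of same-numbered libraries either. These were 0.0822 to 0.503 in AMPH PV at 60 min, -0.00688 to 0.0868 in SST and -0.0487 to 0.0671 at 24 h. The replicate block called Tac1 in AMPH PV at 60 min (-0.663), and at 24 h after AMPH gave -0.8136 for Pdyn and -1.224 for Tac1, both lost, and 3 regions in place of 6. It changed no other call on the genes. It turned AMPH against saline in IP at 60 min to -0.1052 for Penk and -0.2742 for Tac1.

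Leaving out 1 library at a time, IP against UF ran from -0.9034 to -0.4467 for Tac1 in AMPH PV at 60 min (called without IP replicate 3), in SST from -0.07834 to 0.1601 for Penk and -0.1271 to 0.1067 for Tac1, and at 24 h from -0.7507 to 0.5733 for Tac1 after saline. After AMPH at 24 h it ran from -2.191 to -0.7943 for Penk (lost without IP Iso1-1), -1.044 to -0.847 for Pdyn and -2.394 to -0.7485 for Tac1 (lost without IP Iso1-1 or UF Iso1-2). AMPH against saline ran from -0.02006 to 0.4909 for Tac1 in IP at 60 min, -0.108 to 0.007478 for Penk and -0.06739 to 0.07046 for Tac1 in UF at 60 min, -0.3305 to 0.1455 for Tac1 in IP at 24 h and -0.3619 to 0.6891 for Pdyn in UF at 24 h. PV minus SST ran from -1.158 to -0.7526 for Tac1. The count of called regions near the genes ran from 3 to 5 in saline PV at 24 h and from 5 to 10 for PV minus SST. At 24 h after saline, IP library Iso2-3 held 4 reads over Pdyn and 3 over Tac1, and UF library Iso1-1 held 8 and 2. How far these low counts limited what could be detected was not tested.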
